A study of Homo sapiens with 3 samples.

Results

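The 10 genes of the desmosome and hemidesmosome plaques were examined for binding of BRG1, the ATPase encoded by SMARCA4 that drives SWI/SNF chromatin remodelling complexes. They were taken by symbol: DSP, DSG2, DSC2, DSC3, JUP, PKP1, PKP2, PKP3, DST and PLEC, which is 10 of the 19974 protein-coding genes on chromosomes 1 to 22 and X. A BRG1 peak was assigned to a gene when its midpoint lay inside the gene body, or within 100 kb of it with no other protein-coding gene nearer. The data come from chromatin immunoprecipitation with sequencing (ChIP-seq) in wild-type 12Z cells, an established human line of endometriotic epithelium that received no treatment. There were 2 BRG1 libraries and 1 library of input chromatin, all from the same line, and nothing in the labels says whether the 2 came from separate cultures. The deposited lists hold 17399 peaks for replicate 1, 10157 for replicate 2 and 6343 for an overlap list, whose entries are called shared peaks here. The series holds no second condition, so the values describe where BRG1 lay and how far the 2 libraries agreed, and no test between groups is possible. A peak list holds no expression, so the epithelial identity of the cells could not be checked. Shared peaks were assigned to 5 of 9 epithelial markers, KRT8 and CLDN4 among them but not CDH1, EPCAM, KRT19 or ESRP1. They were also assigned to 5 of 7 mesenchymal or stromal markers, FN1 and ZEB2 among them but not VIM or ZEB1. The share of all protein-coding genes was 9.67%.

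Desmosomes fasten neighbouring epithelial cells together. Desmogleins and desmocollins cross the membrane as adhesive cadherins, plakoglobin (JUP) and the plakophilins bind their tails in an inner plaque, and desmoplakin (DSP) ties that plaque to keratin filaments. Hemidesmosomes fasten the cell to the basement membrane, and there plectin (PLEC) and the epithelial form of dystonin (DST) link integrin to keratin.

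Shared BRG1 peaks were assigned to 3 of the 10 plaque genes. DST held 9, PLEC held 3 and PKP2 held 2, and the midpoints of all 14 lay inside the gene bodies. Over all protein-coding genes, 9.67% had a shared peak by the same rule. In replicate 1 the members with a peak numbered 5, the same 3 together with DSC3 and PKP3, beside 20.2% of all genes. In replicate 2 they were DST, PLEC and PKP2 alone, beside 11.5% of all genes. DSP, DSG2, DSC2, JUP and PKP1 had no peak in any of the 3 lists.

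**Figure D1:**
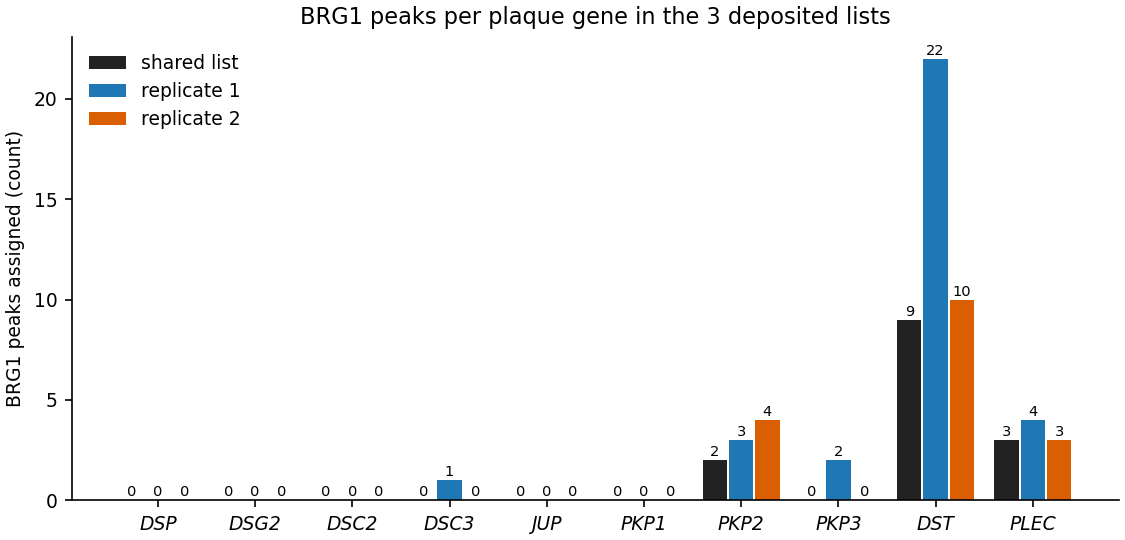
Number of BRG1 peaks (vertical axis, count) assigned to each of the 10 plaque genes in the shared list and in the list of each replicate. DST has 9, 22 and 10 peaks, PLEC 3, 4 and 3, PKP2 2, 3 and 4, and 5 genes have none in any list.

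DST, which encodes the giant plakin dystonin, carried most of the peaks, 9 of 14 in the shared list, 22 of 32 in replicate 1 and 10 of 17 in replicate 2. Across all protein-coding genes, 12 had more shared peaks than DST, and 5 genes, DST among them, had 9. DST is also long, with a body of 497 kb. Of the 271 protein-coding genes with bodies of 400 to 600 kb, 82 (30.3%) had a shared peak inside the body, and the mean was 0.727. No gene of that length class had more than the 9 of DST, and 2 others, AOPEP and SBF2, had the same number.

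RefSeq lists 3 start sites for DST, all on the minus strand, and DST is known to give neuronal, muscle and epithelial forms from separate starts. The table does not say which start gives which form. The second start lies 103 kb and the third 312 kb downstream of the first. Their promoter windows, 250 bases before to 50 bases after each start, are shown because 1 of the 3 lay under a shared peak and the others did not. They are from RefSeq on GRCh38.p14, read 5′ to 3′ on the minus strand, and capitals mark matches to the motifs searched.
DST, the first start, chr6:56954781-56955080: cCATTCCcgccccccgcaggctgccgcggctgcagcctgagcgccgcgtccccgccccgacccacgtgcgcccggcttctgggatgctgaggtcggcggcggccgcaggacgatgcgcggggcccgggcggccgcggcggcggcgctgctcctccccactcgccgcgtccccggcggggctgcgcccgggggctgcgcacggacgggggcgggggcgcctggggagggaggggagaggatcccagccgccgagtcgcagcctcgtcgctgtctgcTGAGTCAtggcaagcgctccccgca
DST, the second start, chr6:56851856-56852155: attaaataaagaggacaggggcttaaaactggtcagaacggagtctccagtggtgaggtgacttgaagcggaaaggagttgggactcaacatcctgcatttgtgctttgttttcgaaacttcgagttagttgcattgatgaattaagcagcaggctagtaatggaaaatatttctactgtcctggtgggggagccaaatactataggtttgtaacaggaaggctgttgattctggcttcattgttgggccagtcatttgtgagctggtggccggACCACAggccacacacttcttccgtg
DST, the third start, chr6:56642840-56643139: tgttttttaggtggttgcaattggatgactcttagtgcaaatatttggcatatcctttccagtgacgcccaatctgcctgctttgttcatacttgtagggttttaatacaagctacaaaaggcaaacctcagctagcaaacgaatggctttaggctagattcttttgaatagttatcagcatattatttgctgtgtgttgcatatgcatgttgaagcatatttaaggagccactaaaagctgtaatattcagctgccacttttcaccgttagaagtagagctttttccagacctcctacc

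The window of the first start lay wholly within the shared peak at chr6:56953623-56955636, which spanned 2014 bp. A replicate 1 peak at chr6:56954573-56955178 also overlapped it. The nearest replicate 2 peak, chr6:56954067-56954725, ended short of the window, 0.105 kb from the start itself. This shared peak was among the weaker ones, with a fold enrichment of 3.06, at percentile 27.0 of all shared peaks by fold. In the replicates the strongest peak under it had a fold of 3.43 (percentile 36.9) in replicate 1 and 3.74 (percentile 54.4) in replicate 2. So both libraries placed BRG1 at or beside this start, at a modest rank in each list.

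The second start lay 42.2 kb from the nearest shared peak. Replicate 1 had a peak of 110 bp at chr6:56851284-56851393, 0.512 kb from that start, while the nearest of replicate 2 was 42.2 kb away. The third start was farthest from any peak, 70.1 kb from the nearest shared peak, 41.2 kb in replicate 1 and 71.0 kb in replicate 2.

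The 3 windows also differed in base composition. The first was 80.0% G or C with 45 CpG pairs, the second 46.3% with 6, and the third 39.3% with 3. Over all 34961 RefSeq promoter windows on these chromosomes the median was 58.7%. In the first window AP-1 (TGANTCA) matched at bases 276 to 282, where base 251 is the start, and TEAD (GGAATG, here as its reverse complement CATTCC) at bases 2 to 7. RUNX (TGTGGT, here as its reverse complement ACCACA) matched in the second window at bases 275 to 280. No motif searched matched in the third. Both strands were searched, and the AP-1 letters read the same on each. Of all promoter windows, 7.68% held the AP-1 letters, 14.0% the TEAD letters and 13.1% the RUNX letters. These matches are a description of the letters only.

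Between the starts, the DST peaks were uneven. From the first to the second start, a stretch of 103 kb, there were 2 shared peaks, or 1.94 per 100 kb. From the second to the third start, 209 kb, there were 5, or 2.39 per 100 kb. From the third start to the lower end, 185 kb, there were 2, or 1.08 per 100 kb. Replicate 1 had 6, 14 and 2 peaks, where the 6 include 1 whose midpoint lay 0.045 kb upstream of the first start. Replicate 2 had 2, 6 and 2.

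The DST peak of highest fold in the shared list and in replicate 1 lay in the first stretch, 15.9 kb downstream of the first start at chr6:56938345-56939486. Its fold was 4.32 in the shared list (percentile 97.3), 4.71 in replicate 1 (percentile 98.0) and 4.87 in replicate 2 (percentile 97.7). In replicate 2 it ranked second among the DST peaks.

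A group of peaks lay between the second and the third start. The shared peaks at chr6:56712940-56714124 and chr6:56714530-56715936 were 0.405 kb apart, and another at chr6:56729469-56731756 followed 13.5 kb away. The middle one of these had the highest replicate 2 fold among the DST peaks, 5.34 (percentile 99.4), but 3.83 in replicate 1 (percentile 75.1). The peak at chr6:56729469-56731756 went the other way, with 4.41 in replicate 1 (percentile 94.9) and 3.79 in replicate 2 (percentile 58.4), each the stronger of 2 replicate peaks under it. The fold ranks of single peaks thus differed between the libraries within this group.

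The remaining shared peaks of DST lay at chr6:56808457-56809734 (fold 3.63), chr6:56772341-56773170 (fold 3.27), chr6:56541445-56542849 (fold 3.09) and chr6:56524785-56525791 (fold 3.69). The last 2 were 15.7 kb apart and were separated from the other DST peaks by 170 kb without a shared peak. Every one of the 10 replicate 2 peaks of DST overlapped a replicate 1 peak. Of the 22 replicate 1 peaks, 10 overlapped one of replicate 2.

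**Figure D2:**
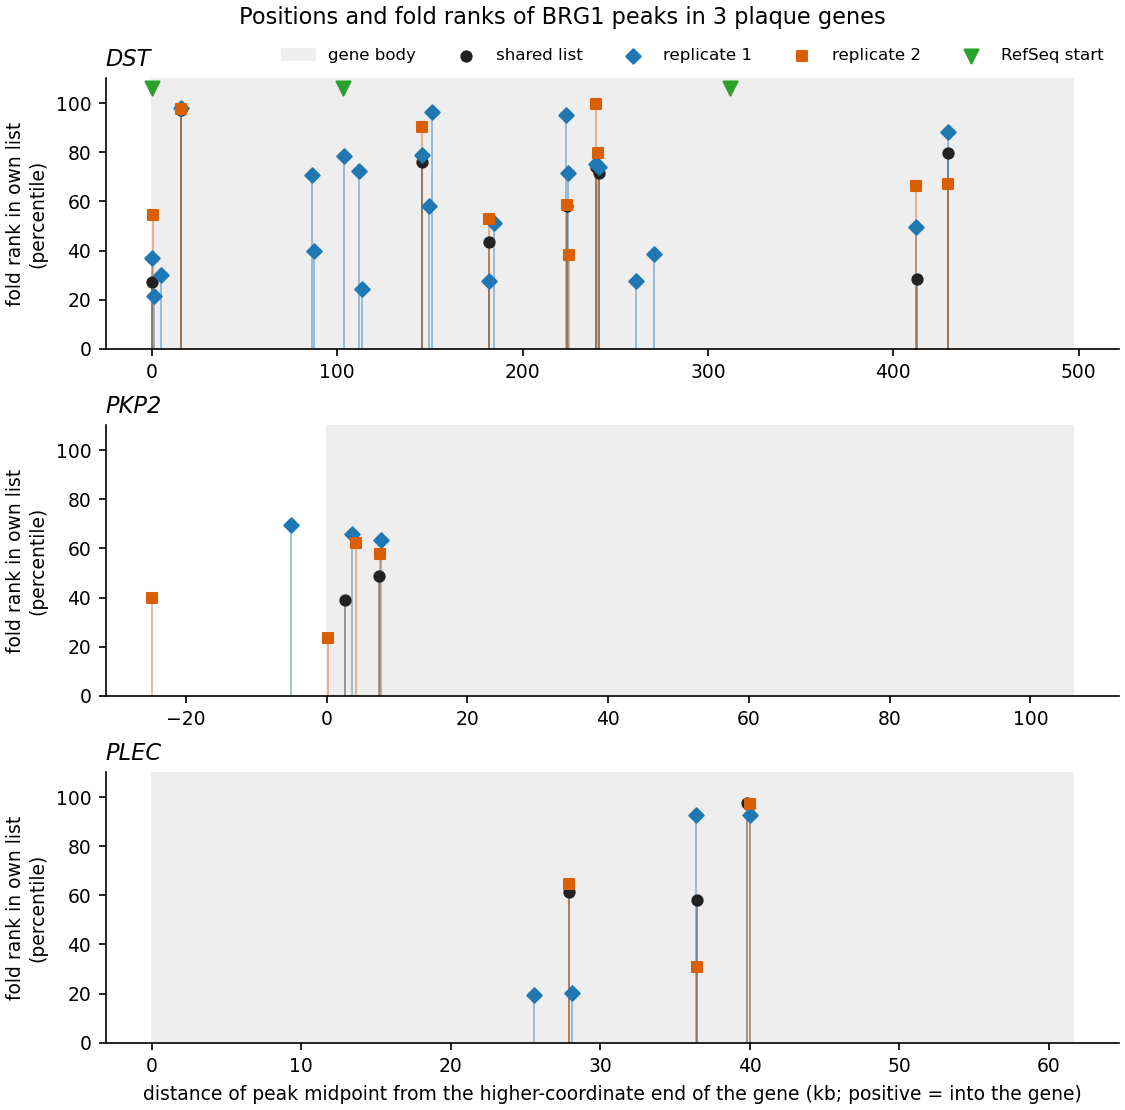
Peaks of DST, PKP2 and PLEC by the distance of their midpoint from the higher-coordinate end of the gene (horizontal axis, kb, positive into the gene, drawn to a separate scale for each gene) and by fold rank within their own list (vertical axis, percentile). Shading marks the gene body and green triangles the 3 RefSeq starts of DST, whose first start has peaks of every list beside it while the third has none.

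PLEC encodes plectin, the plakin that crosslinks keratin filaments to integrin α6β4 at hemidesmosomes. Its 3 shared peaks fell within 12.6 kb inside a body of 61.6 kb, and none lay within 3 kb of a gene end. The strongest, at chr8:143936516-143937405, had a fold of 4.40 in the shared list (percentile 97.7), 4.28 in replicate 1 (percentile 92.8) and 4.82 in replicate 2 (percentile 97.3). It had the highest fold and the highest −log10 q, 8.12, of the 14 shared peaks of the plaque genes.

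The other PLEC peaks ranked differently in the 2 libraries. At chr8:143939677-143940889 the fold was 4.27 in replicate 1 (percentile 92.7) and 3.47 in replicate 2 (percentile 31.0). At chr8:143948580-143949083 it was 3.27 in replicate 1 (percentile 20.2) and 3.85 in replicate 2 (percentile 64.7). All 3 replicate 2 peaks of PLEC overlapped replicate 1 peaks, and replicate 1 had a 4th, at chr8:143951074-143951275, that replicate 2 lacked. Of the 1825 genes with bodies of 50 to 75 kb, 127 (6.96%) had a shared peak in the body and 5, PLEC among them, had 3 or more.

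PKP2 encodes plakophilin 2, an armadillo protein of the desmosomal plaque. Both of its shared peaks lay near the end of higher coordinate, the end from which PKP2 is known to be transcribed. One, at chr12:32891127-32897150, spanned that end and was 6024 bp wide, at percentile 99.6 of shared peaks by width, against a median of 926 bp. It covered 1 peak of replicate 1 at chr12:32891812-32894467, 2656 bp wide, and 2 peaks of replicate 2 at chr12:32891860-32893380 and chr12:32896477-32896769. Only the narrow second of these, 293 bp wide, reached close to the gene end, with its midpoint 0.154 kb inside. The wide shared peak thus contained stretches that neither replicate called.

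The other PKP2 peak, at chr12:32888489-32890051, lay 7.51 kb inside the gene. Fold ranks were moderate in both libraries. At this peak the fold was 3.67 in replicate 1 (percentile 63.5) and 3.78 in replicate 2 (percentile 57.9). The strongest peak under the wide one had 3.70 in replicate 1 (percentile 65.9) and 3.83 in replicate 2 (percentile 62.2). Outside the body, replicate 1 had a peak 5.04 kb and replicate 2 a peak 24.8 kb beyond the same end, and neither was found in the other library. Of the 988 genes with bodies of 90 to 120 kb, 158 (16.0%) had a shared peak assigned and 57 (5.77%) had 2 or more. These counts include peaks outside the body within 100 kb, unlike those of the DST and PLEC length classes.

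**Figure D3:**
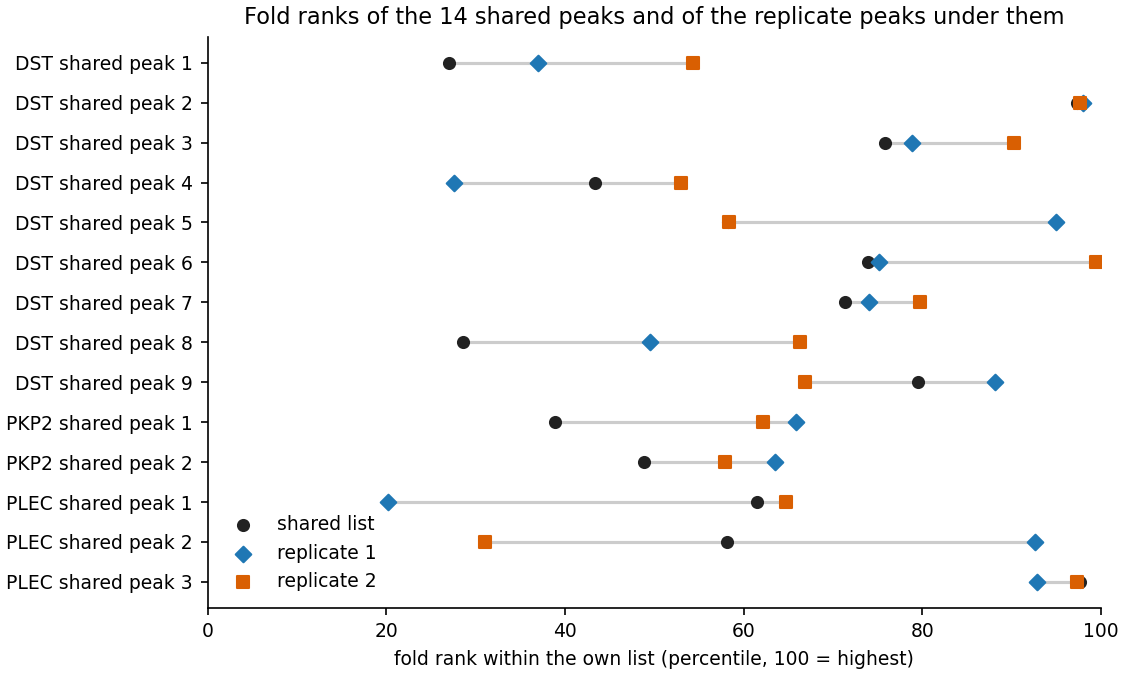
Fold rank within the own list (horizontal axis, percentile, 100 the highest) of the 14 shared peaks of DST, PKP2 and PLEC and of the strongest peak of each replicate under them, numbered from the higher-coordinate end of each gene. DST peak 2 and PLEC peak 3 rank between percentiles 92.8 and 98.0 in all 3 lists, while PLEC peak 1 and PLEC peak 2 rank far apart in the 2 replicates.

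The plakophilin 1 and 3 genes differed from PKP2. PKP3, a gene of 12.3 kb, had 2 replicate 1 peaks near its lower-coordinate end, at chr11:393383-393488 (fold 3.88, percentile 78.7) and chr11:394493-394625 (fold 2.98, percentile 9.86). Neither was found in replicate 2, whose nearest peak lay 430 kb away and was nearest to CD151. PKP1 had no peak in any list, and the nearest shared peak was 156 kb from its body, with CSRP1 as its nearest gene.

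JUP encodes plakoglobin, the catenin-like protein that desmosomes share with adherens junctions. It had no peak in any list, and its nearest shared peak, 307 kb away, was nearest to KRT38. A replicate 1 peak 87.5 kb from JUP was nearer to EIF1 and so was not assigned to it. DSP, whose product desmoplakin is an obligate part of the plaque, lay 388 kb from the nearest shared peak, 172 kb from the nearest peak of replicate 1 and 389 kb from that of replicate 2.

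The desmosomal cadherin members DSG2, DSC2 and DSC3 sit together on chromosome 18 with DSG1, DSG3, DSG4 and DSC1, in a cluster that spans 560 kb. No shared peak and no replicate 2 peak lay anywhere in that span, and replicate 1 had 1. That peak, chr18:31037280-31038139, lay inside DSC3 (fold 3.47, percentile 42.9), 4.60 kb from its RefSeq start. It was 20.7 kb from the body of DSC2. The nearest shared peak below the cluster was 1824 kb away, with another cadherin gene, CDH2, as its nearest gene, and the nearest above was 14402 kb away. Chromosome 18 as a whole held 68 shared peaks, fewer than any other chromosome except 16 with 44 and X with 11, while 42 of its 270 genes (15.6%) had one, against 9.67% of all genes.

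The 7 plaque genes with no shared peak lay a median of 430 kb from the nearest one. For the 18042 protein-coding genes with none the median was 422 kb. The bodies of the 7 measured between 12.3 and 53.4 kb. Of the 3071 protein-coding genes with bodies of 30 to 55 kb, a class that leaves out the shorter PKP3, 8.40% had a shared peak. An absence from these lists says that no peak was called at the depth of these libraries, which the lists do not give, and not that BRG1 was absent.

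**Figure D4:**
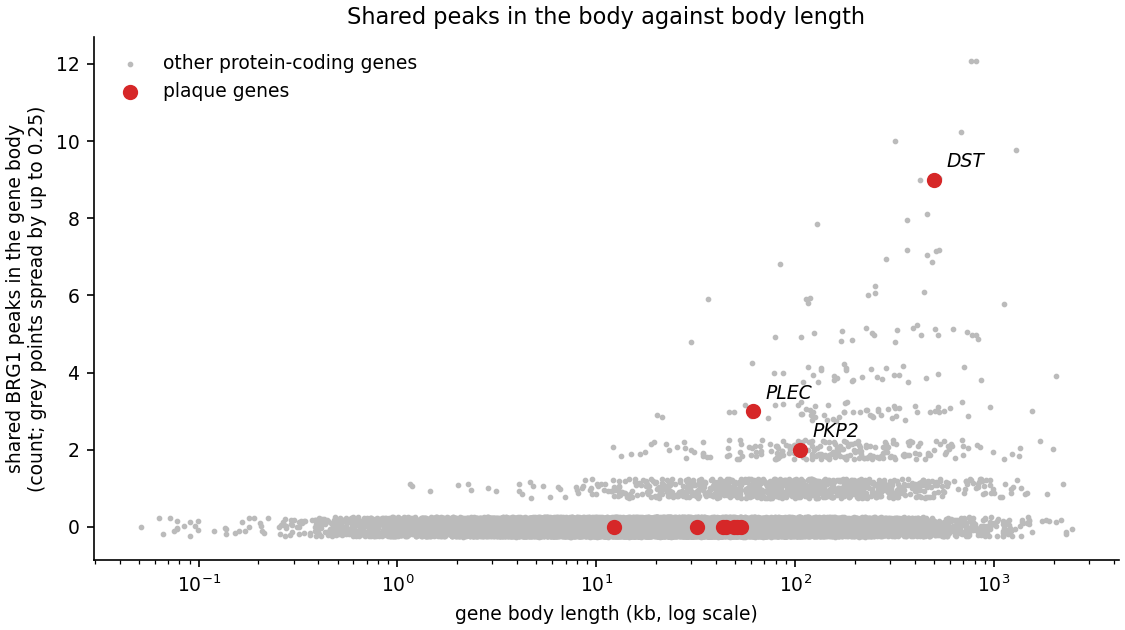
Shared BRG1 peaks with their midpoint inside the gene body (vertical axis, count) against body length (horizontal axis, kb, log scale) for all 19974 protein-coding genes, with the 10 plaque genes in red. DST with 9, PLEC with 3 and PKP2 with 2 are the longest plaque genes, and the 7 shorter ones lie at 0.

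Among the members, the 3 with shared peaks were the 3 with the longest bodies, though PLEC had more peaks than the longer PKP2. Per 100 kb of body and assigned flank, PLEC had 3.76 shared peaks, DST 1.70 and PKP2 0.895. The 10 genes together had 0.995 per 100 kb, against 0.155 over all protein-coding genes. Flanks were cut midway to the next gene body, so only overlapping bodies counted for more than 1 gene. DST alone supplied 9 of the 14 peaks.

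Peaks at gene ends were fewer. A shared peak lay within 3 kb of an end of DST and of PKP2, 2 of the 10 members, beside 2.24% of all genes. In replicate 1 there were 3 members, with PKP3 added, beside 6.85% of all genes. RefSeq promoter windows were listed for 7 members, 11 windows in all, and 1 of the 11, the first of DST, overlapped a shared peak. Of the 22132 windows of protein-coding genes, 0.642% did. Across the 11 windows the E-box letters CAGGTG, a sequence bound by ZEB and SNAI repressors, matched in 4, those of DSP, DSG2, DSC2 and JUP, beside 20.6% of all windows. The AP-1, TEAD and RUNX letters each matched in 1, and the grainyhead letters (AACCNGTT) in 0, beside 1.73% of all windows.

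Agreement between the libraries was first judged by overlap of 1 bp or more. Of the 32 replicate 1 peaks of plaque genes, 15 were found in replicate 2, or 46.9% (95% Wilson interval 30.9 to 63.6%), against 36.6% of all replicate 1 peaks and 33.0% of those assigned to any protein-coding gene. Of the 17 replicate 2 peaks, 15 were found in replicate 1, or 88.2% (95% Wilson interval 65.7 to 96.7%), against 63.9% of all replicate 2 peaks and 74.1% of those assigned to any protein-coding gene. The intervals treat peaks as independent and leave out read sampling, and most of these peaks share 1 gene, DST. Under a stricter rule, overlap of 50% of each peak, the member shares were 15.6% and 29.4%, against 18.6% and 32.0% of all peaks.

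The 15 replicate 1 peaks found in replicate 2 had a median fold percentile of 74.0 and a median width of 708 bp. The 17 that were not found had a median percentile of 42.9 and a median width of 334 bp. The 2 sets overlapped widely, from 20.2 to 98.0 and from 9.86 to 96.5. None of the 14 shared peaks reached a −log10 q of 5 in both replicates, a level that 242 of the 6293 shared peaks on these chromosomes reached. By the −log10 q of the shared list itself 3 of the 14 reached it, 2 in PLEC and 1 in DST, a share like the 21.5% (1353 of 6293) of all shared peaks.

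Other genes of the same structures or of the same protein families were taken from a list of 17. Shared peaks were assigned to 4 of them, again beside 9.67% of all genes. MACF1, the plakin most like DST, had 2, at chr1:39177725-39179229 (fold 3.64) and chr1:39398102-39399082 (fold 3.27), in a body of 403 kb. PPL, the gene of the plaque protein periplakin, had 1 at chr16:4944537-4945111 (fold 3.59), 7.39 kb outside its body. CD151, a tetraspanin partner of laminin-binding integrins, had 1 at chr11:835033-835341 (fold 3.89, percentile 88.8), inside a body of 5.88 kb. Any position in a body that short lies within 3 kb of a gene end.

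LAMA3, which encodes a chain of the laminin that hemidesmosomes bind, had 1 at chr18:23718191-23718657 (fold 3.53). That peak ranked at percentile 27.6 by fold in replicate 1 and 85.7 in replicate 2. The hemidesmosome integrin genes ITGA6 and ITGB4, and the laminin gene LAMB3, had no peak assigned in any list. For ITGB4 the assignment decided this, since a shared peak lay 20.7 kb from its body and was nearer to SAP30BP. COL17A1 and PERP had no shared peak but had 1 peak each in replicate 1. PKP4 had none either, with 3 peaks in replicate 1 and 1 in replicate 2.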

How the data were processed

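The data analysed were BRG1 ChIP-seq peak lists of 2 libraries and their overlap list. Cells had been fixed in 1% formaldehyde for 10 min, and the chromatin digested by micrococcal nuclease and sonicated for 30 seconds, per the labels' protocols. Trim Galore with cutadapt, Bowtie2 on GRCh38.p12, Picard, SAMtools, bedtools and MACS2 appear in the submitters' processing notes, without settings. Each peak has a deposited fold, a ratio of signal over background. The authors also give −log10 values of p and of q. All of these are the authors' values, used only to describe and rank peaks within 1 list. Read depth is unknown.

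Here, peaks on chromosomes 1 to 22 and X were assigned with Python 3.11.15, numpy 2.4.6, pandas 2.3.3 and scipy 1.17.1. Gene bodies came from RefSeq on GRCh38.p14, whose chromosome coordinates are those of the earlier patch release. A position inside several bodies counted for each. A gene end meant 3 kb either side of both ends, reached by any base of the peak. A fold percentile is the rank within its list. The assignment code was tested on simulated data. The members and lists were chosen with earlier results of these data known. Genes are named where they are members, listed genes with a shared peak, or neighbours of a peak. The length classes, AOPEP, SBF2 and the listed genes without a shared peak were chosen after their values were seen. The planned motif search in peak sequence was made in promoter windows instead, because no genome was used here. A result for 1 listed gene is not reported here.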

Additional observations from a re-analysis of the deposited data

How the results depend on the processing

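Members with a shared peak stayed at 3, and their 14 peaks stayed within 1.5 times, under several other rules. With any base of a peak counted, 9.7% of all genes had a shared peak. The share was 8.93% for a limit of 50 kb, 10.8% for 1 Mb and 5.95% for gene bodies alone. For peaks whose own −log10 q was at least 2, the share was 9.6%. At a −log10 q of at least 5 in both replicates, 0 members, 0 peaks and 0 members at gene ends remained. Of all genes, 0.125% had a peak at this level and 0.015% had one at a gene end. Without replicate 1, the list of replicate 2 held 3 members with 17 peaks, beside 11.5% of all genes. At gene ends it held 2 members, beside 3.0% of all genes. Without replicate 2, the list of replicate 1 held 5 members with 32 peaks, beside 20.2% of all genes. At gene ends it held 3 members, beside 6.85% of all genes. Windows of 1 kb or 10 kb at gene ends left 2 members, beside 1.29% and 4.58% of all genes. The shares of member peaks found in the other replicate fell from 46.9% and 88.2% to 15.6% and 29.4% where overlap of 50% of each peak was required, and were 64.7% and 100% at a −log10 q of at least 2, where those of all peaks were 50.5% and 73.2%. They stayed inside their intervals when peaks within 1 kb counted as found. The cause was not tested. No paired analysis was possible because the series has 1 group of BRG1 libraries. The unknown depth limits what an absent peak can show.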
